A study of Drosophila melanogaster with 36 samples.

Results

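Peptidoglycan recognition and control of the Imd pathway were followed through 10 genes, PGRP-SA, PGRP-SB1, PGRP-SC2, PGRP-SD, PGRP-LB, PGRP-LC, PGRP-LF, pirk, Rel and imd, in whole adult male Drosophila melanogaster. Members were taken as all probe sets annotated to 1 gene only, that gene being on the list under its current symbol or a synonym. This gave 7 probe sets, 1 for each of 7 genes, of 18769 fly probe sets and 11982 gene symbols with a probe set of their own. A probe set for PGRP-SD was found only through the study's own list of changed genes, which was drawn up on these arrays, so its differences are given with no test and stay out of every count of 7. No probe set was named for PGRP-SA or PGRP-LC, and both were not analysed here.

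Each of 36 arrays held RNA from a pool of 40 flies, in 12 groups of 3 biological replicates, aged at 25C on cornmeal food. All flies carried a Gal4 driver and a UAS transgene. D42-Gal4 drove expression in motoneurons (MN), M1B-Gal4 in glia, and D42-Gal4 with M1B-Gal4 in both (MN+glia). The transgene was either wild-type Drosophila SOD1 (dSOD1), the control, or human SOD1 with the G85R mutation linked to amyotrophic lateral sclerosis (G85R), and flies were frozen at 5 days (5d) or 45 days (45d). Controls thus also overexpressed a SOD1 protein. The 2 transgenes are separate insertions, so the fly line and the SOD1 protein cannot be told apart, and each driver comes with its own genetic background. In RNA from whole flies, fewer cells of a type and less RNA per cell cannot be told apart either, and the transgene was expressed in cells that make up a small part of the body.

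Values are log2 signals made by robust multiarray averaging (RMA), and the median over all probe sets ran from 6.41 to 6.55 on 35 arrays. Replicate 2 of 5d MN+glia G85R stood apart with signs of degraded RNA: the actin control was 5.72 higher (log2) at its 3' than at its 5' end, against 2.39 to 3.25 on the other arrays. It was left out, so that this group had 2 arrays. For the labelled sex, a list of 5 male genes had a mean log2 signal of 10.8 to 11.8 over the arrays and a list of 4 female genes 4.47 to 6.03, levels of different probe sets that are not set against each other. Differences are given as log2 with SE from a limma model over all groups, adjusted by the Benjamini-Hochberg method over all 18769 probe sets within a comparison, and a call means an adjusted p of at most 0.05. Replicates were separate pools, so the spread is that between pools of one line. With 2 or 3 arrays a group, groups can fail to overlap by sampling alone, so lack of overlap is description only. How many of all probe sets lacked overlap is not given here.

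The Imd pathway is the fly's main response to Gram-negative bacteria. Peptidoglycan of the diaminopimelic acid type is sensed by the receptors PGRP-LC at the cell surface and PGRP-LE inside the cell, which signal through the adaptor imd to the NF-kappaB factor Relish, encoded by Rel, and on to antimicrobial peptide genes in the fat body and gut. Several layers hold it in check. PGRP-SB1, PGRP-SC2 and PGRP-LB are amidases that cut peptidoglycan, PGRP-LF is a membrane protein that blocks PGRP-LC, and pirk is an intracellular protein that interferes with signalling between receptor and imd. Many of these inhibitors are themselves Relish targets.

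Expression of G85R in MN was accompanied in 45d flies by higher signals of amidases, both inhibitors and Rel, while no member was called in 45d flies with G85R in glia or in MN+glia. In 45d MN flies 6 of 7 members rose (6.94% of all probe sets were called higher in this comparison), with a median difference of 0.53 against -0.01 over all probe sets. PGRP-SB1 was 2.73-fold higher, pirk 2.07-fold and the other 4 between 1.35-fold and 1.47-fold. The count stayed at 6 when any 1 array was left out. In 45d glia flies 0 of 7 members were called by limma, and 0 had an unadjusted p under 0.05 (12.3% of all probe sets called in either direction). In 45d MN+glia flies 0 were called, and 1, PGRP-LB, had an unadjusted p under 0.05 (8.74% called).

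**Figure D1:**
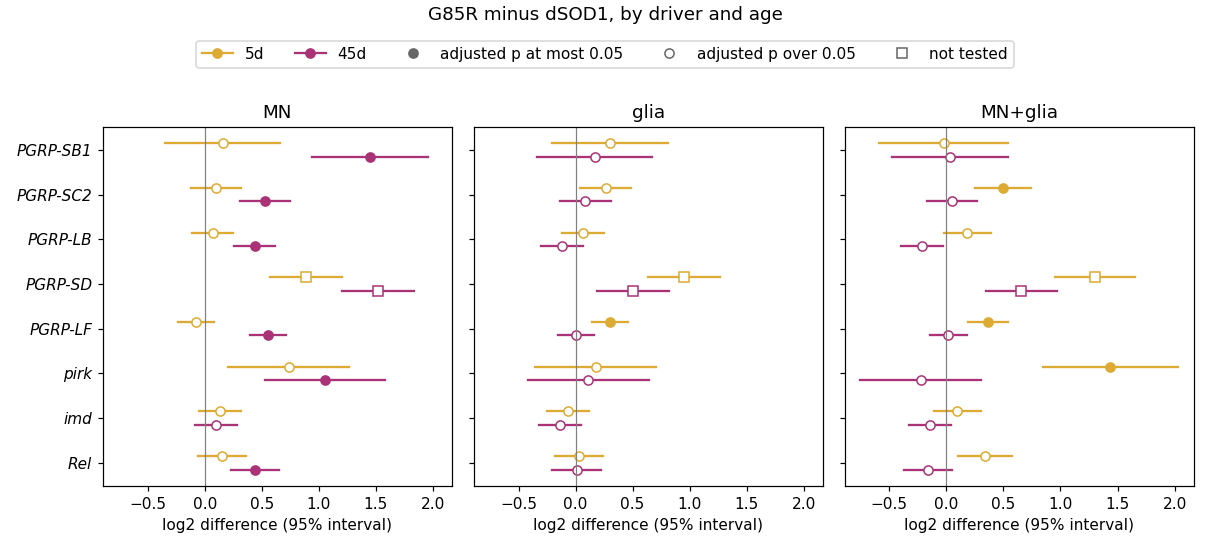
G85R minus dSOD1 difference (log2) of each gene at 5d and 45d in the 3 driver panels, as the fitted value with its 95% interval; filled circles have an adjusted p of at most 0.05, and squares mark PGRP-SD, which was not tested. At 45d, 6 filled circles lie to the right of 0 in the MN panel and none in the other panels.

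At 5d, in MN flies, limma called 0 of 7 members, and 1, pirk, had an unadjusted p under 0.05 (10.3% of all probe sets called in either direction). In glia flies 1 member, PGRP-LF, rose (3.40% called higher), and in MN+glia flies PGRP-SC2, PGRP-LF and pirk rose (2.93% called higher). With the degraded array kept, 5 members were called in 5d MN+glia flies, PGRP-LB and Rel joining those 3, while the share of all probe sets called in either direction went from 6.51% to 13.9%.

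The amidase PGRP-SB1, which is secreted, gave the largest of the 6 called differences among members in 45d MN flies. In 45d MN flies it was at 10.01, 9.88 and 9.70 on the dSOD1 arrays and at 11.17, 11.85 and 10.92 on the G85R arrays. The groups did not overlap, and replicate 2 was the highest G85R array. The difference was 1.45 (SE 0.25, adjusted p = 1.1e-04 by limma), and without that array it was 1.18. At 5d the same comparison gave 9.32, 9.01 and 9.27 against 9.33, 9.50 and 9.23, an overlap, with a difference of 0.16 (95% interval -0.35 to 0.66). In 45d glia flies the dSOD1 controls were themselves high, at 10.91, 11.75 and 10.41, beside 11.18, 11.47 and 10.93 with G85R. The 2 groups overlapped in full, and the difference was 0.17 (95% interval -0.34 to 0.67). In 45d MN+glia flies signals were lower, at 9.45, 9.34 and 9.71 in dSOD1 and 9.38, 9.46 and 9.75 in G85R flies, again with overlap and a difference of 0.03 (95% interval -0.48 to 0.54).

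PGRP-SC2, a secreted amidase known from the gut, rose in 45d MN flies from 12.40, 12.29 and 12.27 to 12.84, 12.83 and 12.88. Every G85R array lay above every dSOD1 array, with a difference of 0.53 (SE 0.11, adjusted p = 9.2e-04 by limma). In 5d MN+glia flies it went from 10.60, 10.62 and 10.40 in dSOD1 to 10.92 and 11.15 in G85R flies, a difference of 0.49 (SE 0.12, adjusted p = 0.0091 by limma). That call was lost without replicate 3 of the G85R group (0.38, adjusted p = 0.24) or replicate 3 of the dSOD1 group (0.43, adjusted p = 0.058). The degraded array, at 11.85, was higher still and raised the difference to 0.77. In 5d glia flies PGRP-SC2 did not overlap between groups, at 11.02, 10.87 and 10.97 against 11.23, 11.35 and 11.06, but the difference of 0.26 (SE 0.11) was not called (adjusted p = 0.16 by limma).

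PGRP-LB, an amidase with secreted and intracellular forms, was at 8.21, 8.17 and 8.24 in 45d MN dSOD1 flies and at 8.72, 8.65 and 8.56 in MN G85R flies. These groups did not overlap, and the difference was 0.44 (SE 0.089, adjusted p = 8.8e-04 by limma). Its probe set may read several transcript forms, which the array does not separate. In the 45d MN+glia flies PGRP-LB was lower with G85R and did not overlap, at 7.79, 7.81 and 7.96 in dSOD1 against 7.54, 7.65 and 7.72 in G85R flies. This difference of -0.21 (SE 0.089) was not called (adjusted p = 0.16 by limma).

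PGRP-SD, a secreted recognition protein studied in both Toll and Imd signalling, had a higher mean signal in G85R than in dSOD1 flies in all 6 comparisons. At 5d it went from 8.02, 7.71 and 8.24 to 8.83, 9.04 and 8.77 in MN flies. In glia flies it went from 8.11, 7.94 and 8.28 to 8.92, 9.38 and 8.89, and in MN+glia flies from 6.96, 6.79 and 6.62 to 8.06 and 8.12. The differences were 0.89, 0.95 and 1.30 in that order, the last being 1.52 with the degraded array at 8.74. At 45d it went from 9.21, 9.09 and 9.005 to 10.53, 10.90 and 10.44 in MN flies, a difference of 1.52. In 45d glia flies it went from 10.04, 10.29 and 10.04 to 10.59, 10.88 and 10.42 (0.51), and in 45d MN+glia flies from 8.48, 8.17 and 8.80 to 9.002, 9.16 and 9.27 (0.66). The study listed this gene because of such differences on these arrays, so the values describe it and support nothing.

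Among the inhibitors, PGRP-LF had the smallest spread between replicates and was called in 3 of 6 comparisons. In 45d MN flies it rose from 7.70, 7.72 and 7.61 to 8.26, 8.30 and 8.14. The groups lay well apart, with a difference of 0.56 (SE 0.078, adjusted p = 5.8e-06 by limma). In 5d glia flies it rose from 6.66, 6.59 and 6.70 to 6.96, 7.06 and 6.84, a difference of 0.30 (SE 0.078, adjusted p = 0.013 by limma). This call was lost without replicate 2 of the dSOD1 group (0.27, adjusted p = 0.074) or replicate 2 of the G85R group (0.25, adjusted p = 0.10). In 5d MN+glia flies it rose from 6.80, 6.93 and 6.91 to 7.24 and 7.25, a difference of 0.36 (SE 0.087, adjusted p = 0.0075 by limma). The degraded array was at 7.56 (0.47 with it), and the call was lost without G85R replicate 3 (0.35, adjusted p = 0.098) and in a fit on the arrays of this comparison alone (adjusted p = 0.053). In 5d MN flies the groups overlapped, at 7.29, 6.86 and 7.06 against 6.92, 7.07 and 6.98. PGRP-LF lies in the genome beside PGRP-LA and PGRP-LC in the RefSeq gene table used for names.

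The feedback inhibitor pirk was higher in MN G85R flies at both ages. At 45d it rose from 8.07, 7.96 and 7.91 to 9.16, 8.85 and 9.09, with no overlap and a difference of 1.05 (SE 0.26, adjusted p = 0.0054 by limma). At 5d it was at 7.72, 8.13 and 7.89 in dSOD1 and 8.91, 8.52 and 8.52 in G85R flies. Those groups did not overlap either, but the difference of 0.74 (SE 0.26) was not called (adjusted p = 0.067 by limma). It was called with dim probe sets left out, with a prior trend on signal and in a fit on the arrays of this comparison alone. In glia flies the differences were 0.18 at 5d and 0.11 at 45d, neither of them called.

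In 5d MN+glia flies the value of pirk rested on single arrays. The dSOD1 arrays were at 6.37, 6.07 and 6.30, and the G85R arrays at 6.75 and 8.61, with the degraded array at 9.13. All G85R arrays lay above all dSOD1 arrays, but replicate 1 was only a little higher and replicate 3 far higher. The difference was 1.43 (SE 0.29, adjusted p = 0.0014 by limma) from replicates 1 and 3 and 1.92 with the degraded array. With replicate 1 alone it was 0.51 (adjusted p = 0.37), with replicate 3 alone 2.36, and in a fit on the arrays of this comparison alone the call was lost (adjusted p = 0.15). Rel showed the same order of arrays, at 9.43, 9.49 and 9.41 in dSOD1 flies, 9.51 and 10.06 in G85R flies and 10.33 on the degraded array. At 45d pirk overlapped between the MN+glia groups, at 7.93, 7.21 and 8.35 against 7.37, 7.81 and 7.65.

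Rel, the transcription factor of the pathway, rose in 45d MN flies from 9.68, 9.67 and 9.75 to 10.07, 10.35 and 10.02. The groups did not overlap, and the difference was 0.44 (SE 0.10, adjusted p = 0.0033 by limma). In 45d glia flies its arrays were at 9.98, 10.09 and 9.94 against 9.99, 10.03 and 10.00, a difference of 0.01 (95% interval -0.20 to 0.22). In 45d MN+glia flies Rel was lower with G85R and did not overlap, at 10.05, 10.14 and 10.12 against 9.88, 9.90 and 10.04, but the difference of -0.16 was not called (adjusted p = 0.42 by limma). The adaptor gene imd stayed within a narrow band. It was at 6.65, 6.88 and 6.97 in 45d MN dSOD1 and 6.89, 7.10 and 6.79 in MN G85R flies, with overlap and a difference of 0.10 (95% interval -0.09 to 0.28). No comparison of G85R with dSOD1 called imd, and its 6 differences ran from -0.14 to 0.13.

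**Figure D2:**
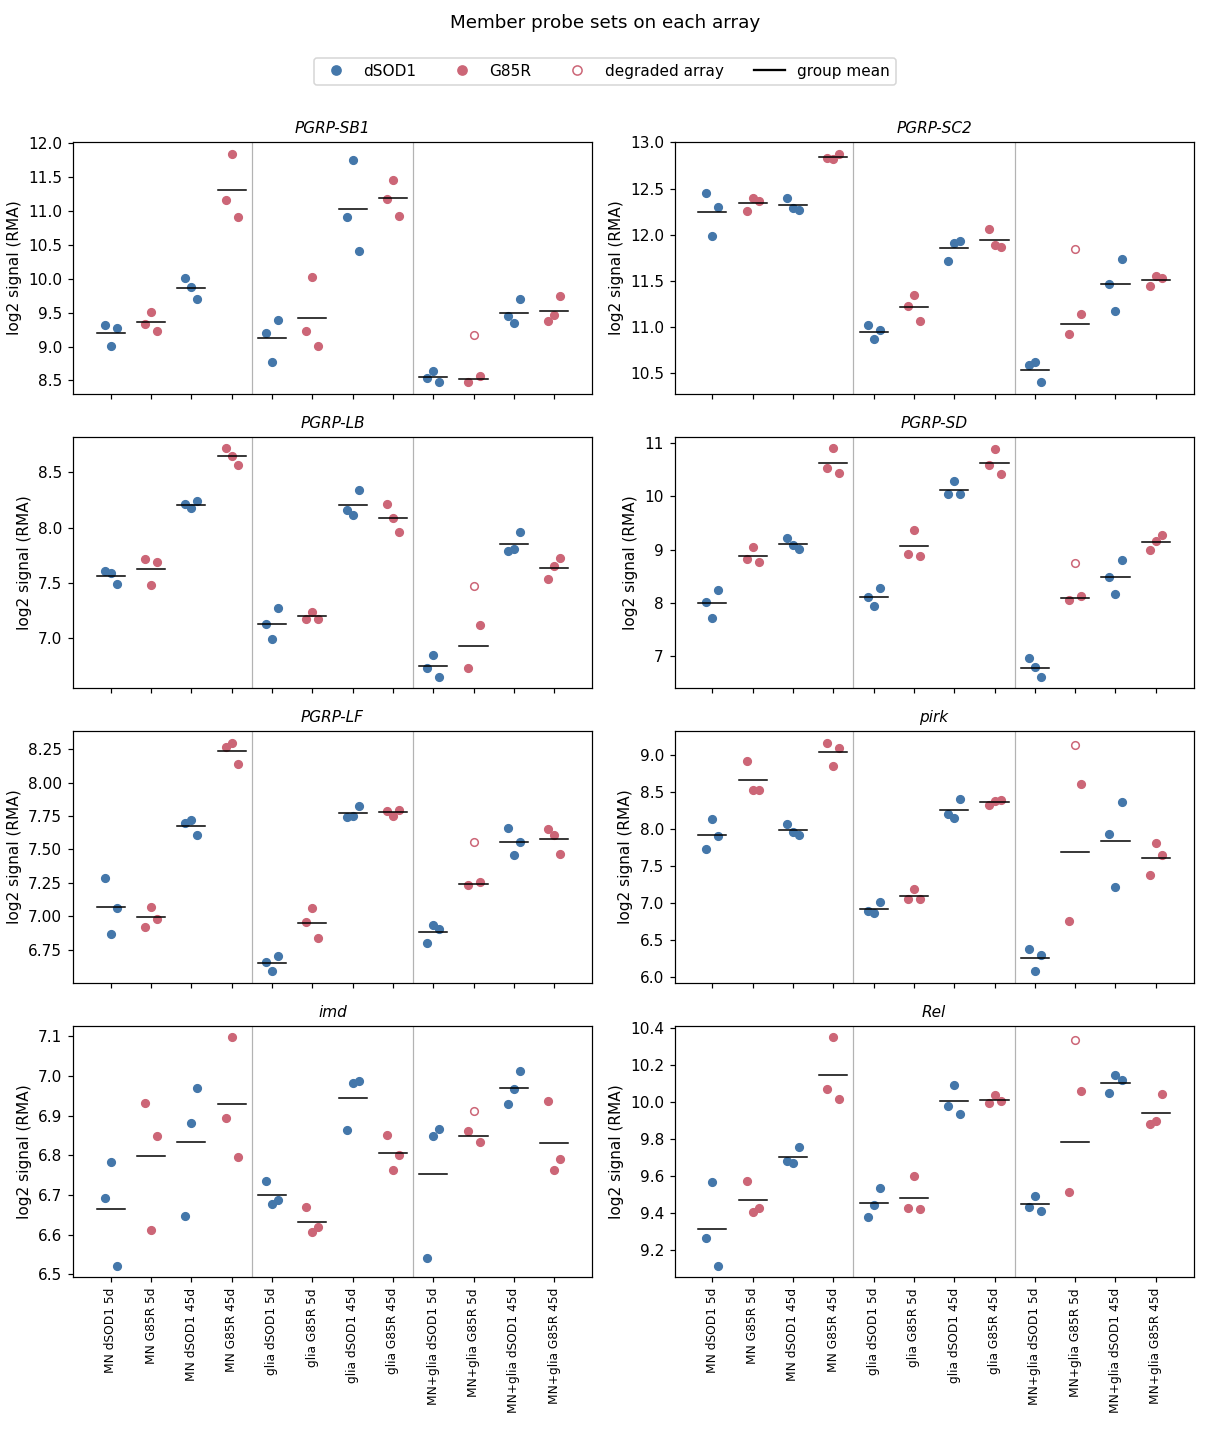
Log2 signal of each gene on every array in the 12 groups, with dSOD1 in blue and G85R in red; black lines are group means, and the open circle is the degraded array, which is not in its mean. PGRP-SB1, PGRP-SC2, PGRP-LB, PGRP-LF, pirk and Rel have their highest mean in 45d MN G85R flies, and the group means of imd span 0.34.

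Ordered by group mean, 6 of the 8 genes peaked in 45d MN G85R flies; PGRP-SD peaked in 45d glia G85R flies and imd in 45d MN+glia dSOD1 flies. For PGRP-SC2, PGRP-LB, PGRP-LF and pirk the step down to the next group was larger than the SD of either. For PGRP-SB1 the top 3 groups, 45d MN G85R (11.31 ± 0.48), 45d glia G85R (11.19 ± 0.27) and 45d glia dSOD1 (11.03 ± 0.68; SD, n = 3 each), did not differ beyond their spread, and a gap of 1.16 separated them from 45d MN dSOD1 (9.86 ± 0.15). PGRP-SD had the same 3 groups at the top, with a gap of 0.98 below them. Among its top 3, 45d glia dSOD1 (10.12) lay 0.50 below 45d MN G85R (10.62), a step larger than the SD of either. Between lowest and highest group mean the signal varied 14.3-fold for PGRP-SD, 6.91-fold for pirk, 6.89-fold for PGRP-SB1, 4.95-fold for PGRP-SC2, 3.74-fold for PGRP-LB and 3.00-fold for PGRP-LF. Rel varied 1.78-fold and imd 1.26-fold, and for imd no step between neighbouring groups exceeded the SD. PGRP-SC2 was ordered by driver as well as age, since all 4 MN groups, 12.25 to 12.85, stood above the 8 other groups, 10.54 to 11.94.

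Whether the G85R difference itself changed with age was tested by an interaction term. In MN flies it grew for 2 of 7 members (1.02% of all probe sets called higher). For PGRP-LF the difference went from -0.08 at 5d to 0.56 at 45d, a change of 0.64 (SE 0.11, adjusted p = 9.5e-04 by limma). For PGRP-SB1 the change was 1.29 (SE 0.35, adjusted p = 0.046 by limma), which was lost without any 1 of 10 of the 12 MN arrays (1.02 to 1.37, adjusted p 0.052 to 0.12), under quantile normalization (adjusted p = 0.054) and with the degraded array in the fit (adjusted p = 0.069). In glia flies limma called 0 of 7 members, and 1, PGRP-LF, had an unadjusted p under 0.05 (2.99% called in either direction). In MN+glia flies the difference of pirk shrank by age, with a change of -1.66 (SE 0.39, adjusted p = 0.021 by limma; 0.852% called lower). That change was -0.73 (adjusted p = 0.40) without G85R replicate 3 at 5d. It was also lost without dSOD1 replicate 2 at 5d, dSOD1 replicate 1 or 3 at 45d or G85R replicate 1 at 45d (-1.40 to -1.61, adjusted p 0.054 to 0.078), and in a fit on the arrays of this comparison alone (adjusted p = 0.27). With the degraded array 5 members were called lower in MN+glia flies, which share that one array, and 3.86% of all probe sets were called in either direction against 1.46% without it.

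The G85R difference was then compared between drivers. At 45d it was larger in MN than in glia flies for PGRP-LF, by 0.55 (SE 0.11, adjusted p = 0.0034 by limma), and for PGRP-LB, by 0.55 (SE 0.13, adjusted p = 0.012; 0.986% called higher). The call of PGRP-LB was lost without replicate 3 of 45d glia dSOD1 (0.48, adjusted p = 0.062) or of 45d glia G85R (0.49, adjusted p = 0.057), and with the degraded array in the fit (adjusted p = 0.081). All 7 members had a larger difference in MN than in glia flies, and PGRP-SB1, at 1.28 (SE 0.35), just missed the threshold (adjusted p = 0.052). Against MN flies the 45d difference in MN+glia flies was smaller for 4 of 7 members (1.16% called lower). The change was -0.54 (SE 0.11, adjusted p = 0.0043) for PGRP-LF and -0.65 (SE 0.13, adjusted p = 0.0025 by limma) for PGRP-LB, both called without any 1 array.

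The other 2 of these calls depended on single arrays. PGRP-SB1, at -1.42 (SE 0.35, adjusted p = 0.026 by limma), was lost without MN dSOD1 replicate 2 or 3, MN G85R replicate 2, MN+glia dSOD1 replicate 3 or MN+glia G85R replicate 1 or 2 (-1.15 to -1.43, adjusted p 0.052 to 0.11). Rel, at -0.61 (SE 0.15, adjusted p = 0.022 by limma), was lost without MN dSOD1 replicate 1 or 2, MN G85R replicate 2, MN+glia dSOD1 replicate 2 or 3 or MN+glia G85R replicate 1 or 2 (-0.50 to -0.60, adjusted p 0.051 to 0.093). Rel was also lost with the degraded array in the fit (adjusted p = 0.084). MN+glia and glia flies gave 0 called members at 45d, and 0 with an unadjusted p under 0.05 (0.666% called in either direction). At 5d limma called 0 members in each of the 3 driver comparisons, with 1, 2 and 1 at an unadjusted p under 0.05 for MN against glia (0.884% called), MN+glia against MN (1.02% called) and MN+glia against glia (0.144% called). These comparisons share arrays with each other and with those of each driver.

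Ageing moved more members than G85R did in glia and MN+glia flies, against a background in which many genes moved. In MN flies it moved fewer than the 6 called with G85R at 45d. In dSOD1 flies 4 of 7 members rose from 5d to 45d with MN expression (27.4% of all probe sets called higher), 7 of 7 with glia expression (23.6%) and 6 of 7 with MN+glia expression (22.1%). In G85R flies 5 of 7 rose in MN (23.2%), 6 of 7 in glia (21.0%) and 4 of 7 in MN+glia (16.5%). The remaining members were not called. PGRP-LB, PGRP-LF and PGRP-SB1 rose in all 6.

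**Figure D3:**
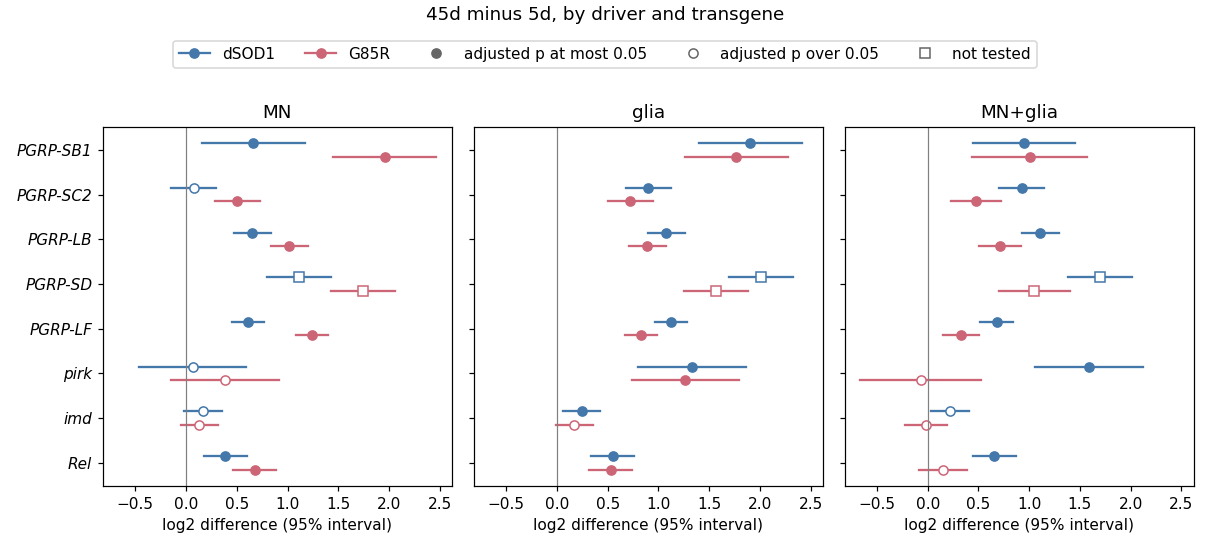
45d minus 5d difference (log2) of each gene in dSOD1 (blue) and G85R (red) flies for the 3 drivers, with 95% intervals; filled circles have an adjusted p of at most 0.05, and squares mark PGRP-SD, which was not tested. No filled circle lies to the left of 0, and the dSOD1 difference of PGRP-SB1 reaches 1.91 in glia flies against 0.66 in MN flies.

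The ageing of PGRP-SB1 in controls was 0.66 (SE 0.25, adjusted p = 0.028) in MN, 1.91 (SE 0.25, adjusted p = 1.6e-07) in glia and 0.95 (SE 0.25, adjusted p = 0.0023 by limma) in MN+glia flies. In MN controls that call was lost without replicate 2 at 5d (0.57, adjusted p = 0.097) or replicate 1 or 2 at 45d (0.59 and 0.66, adjusted p 0.083 and 0.063), and under cyclic loess normalization (adjusted p = 0.069). With G85R it was 1.96, 1.77 and 1.004 in the same order, and the last of these was lost without replicate 1 at 5d (0.96, adjusted p = 0.051) and was 0.79 with the degraded array. For PGRP-SD the 45d minus 5d differences, described without a test because the gene was listed from the same arrays, were 1.11, 2.01 and 1.69 in dSOD1 and 1.74, 1.57 and 1.05 in G85R flies. Its lowest signals, 6.96, 6.79 and 6.62, were those of 5d MN+glia dSOD1 flies.

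PGRP-LF rose with age by 0.61, 1.12 and 0.68 in MN, glia and MN+glia controls, and by 1.24 (SE 0.078, adjusted p = 1.9e-13 by limma), 0.82 and 0.33 in G85R flies. PGRP-LB rose by 0.65, 1.08 and 1.11 in controls and by 1.02, 0.89 and 0.71 in G85R flies. With the degraded array the MN+glia G85R values were 0.53 for PGRP-LB and 0.23 for PGRP-LF, both still called. PGRP-SC2 was near its starting level in ageing MN controls, at 0.07 (95% interval -0.15 to 0.29), and rose by 0.90 and 0.92 in glia and MN+glia controls. In ageing MN+glia G85R flies it rose by 0.48 (SE 0.12, adjusted p = 0.0025 by limma), a call lost without replicate 1 at 5d (0.37, adjusted p = 0.085) and with the degraded array (0.21, adjusted p = 0.31).

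The inhibitor pirk was called with age in glia and MN+glia controls. In glia controls it went from 6.88, 6.86 and 7.00 to 8.20, 8.15 and 8.40, and in MN+glia controls from 6.37, 6.07 and 6.30 to 7.93, 7.21 and 8.35. Both pairs of groups were apart, with differences of 1.33 (SE 0.26, adjusted p = 8.2e-05) and 1.59 (SE 0.26, adjusted p = 7.4e-06 by limma). In MN controls the 2 ages overlapped and the difference was 0.06 (95% interval -0.47 to 0.59). With G85R, pirk gave 0.38 in MN flies, not called, and rose by 1.27 in glia flies. In MN+glia G85R flies it was not called, at -0.07 (-0.56 with the degraded array), but the 2 early arrays pulled apart. With replicate 1 alone at 5d it was 0.86 (adjusted p = 0.0075) and with replicate 3 alone -0.998 (adjusted p = 0.0024 by limma). The ageing of controls was not compared between drivers by a test. Rel rose with age by 0.39, 0.55 and 0.66 in controls and by 0.68 and 0.53 in MN and glia G85R flies. In MN+glia G85R flies Rel gave 0.15 and was not called. It also turned on the early array, at 0.43 with replicate 1 alone at 5d and -0.12 with replicate 3 alone. The gene imd rose in glia controls by 0.24 (SE 0.090, adjusted p = 0.029 by limma) and gave 0.22 (SE 0.090, adjusted p = 0.054) in MN+glia controls. The call in glia controls was lost without replicate 2 or 3 of either age (0.22 to 0.24, adjusted p 0.067 to 0.090).

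Antimicrobial peptide genes were followed beside the members through a list of 15 genes of which 7 had a probe set of their own. The list was not split by the pathway that controls each gene. In 45d MN flies 6 of 7 rose with G85R (6.94% of all probe sets called higher), with a median difference of 2.22. Mtk, encoding metchnikowin, rose by 3.18 (SE 0.65), AttD, an attacin, by 3.00 (SE 0.41) and DptB, a diptericin, by 2.81 (SE 0.76; adjusted p = 8.3e-04, 4.1e-06 and 0.011 by limma). CecB, a cecropin, was not called, at 0.24. The count was 3 without replicate 2 of the G85R group and 4 without replicate 2 of the dSOD1 group. In the other 5 comparisons of G85R with dSOD1 limma called 0 of the 7 (6.51% to 12.3% of all probe sets called in either direction). An unadjusted p under 0.05 was seen for 1 in glia flies at each age and 0 elsewhere. With age 7 of 7 rose in glia controls (median 2.18), 2 in MN controls and 1 in MN+glia controls (23.6%, 27.4% and 22.1% of all probe sets called higher). The MN control count was near its share and the MN+glia control count below it. The glia control count was 5 without replicate 2 of either age and 6 without replicate 1 or 3 at 5d. With G85R, 6 rose in ageing MN flies, 6 in glia flies and 1 in MN+glia flies (23.2%, 21.0% and 16.5% called higher). The 1 in MN+glia flies, Drs (1.27), was near that share. The glia G85R count was 2 without replicate 3 at 5d and 4 without replicate 1 at 5d.

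The mean log2 signal of these 7 genes on each array shared its order with PGRP-SB1 in some groups and not in others. It was 8.84, 10.14 and 8.48 in 45d MN G85R flies, replicate 2 being highest as it was for PGRP-SB1. In 45d glia controls it was 9.29, 9.81 and 8.27, and replicate 2 was again the highest for both. In 5d glia G85R flies replicate 2 stood out, at 8.91 against 7.17 and 7.09, with PGRP-SB1 at 10.02 against 9.23 and 9.01. In 5d MN controls the orders differed, since replicate 2 was highest for the peptides, at 6.72 against 6.48 and 6.43, and lowest for PGRP-SB1, at 9.01 against 9.32 and 9.27. For pirk the array order differed in 5d MN G85R flies, at 8.91, 8.52 and 8.52 with peptide means of 6.56, 6.75 and 6.60. In 5d MN+glia G85R flies the order was shared. Replicate 1 was at 6.75 for pirk with a peptide mean of 6.63. Replicate 3, high for pirk (8.61) and Rel, had a peptide mean of 6.75. The degraded array was highest for both, at 9.13 for pirk and 6.99 for the peptides.

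**Figure D4:**
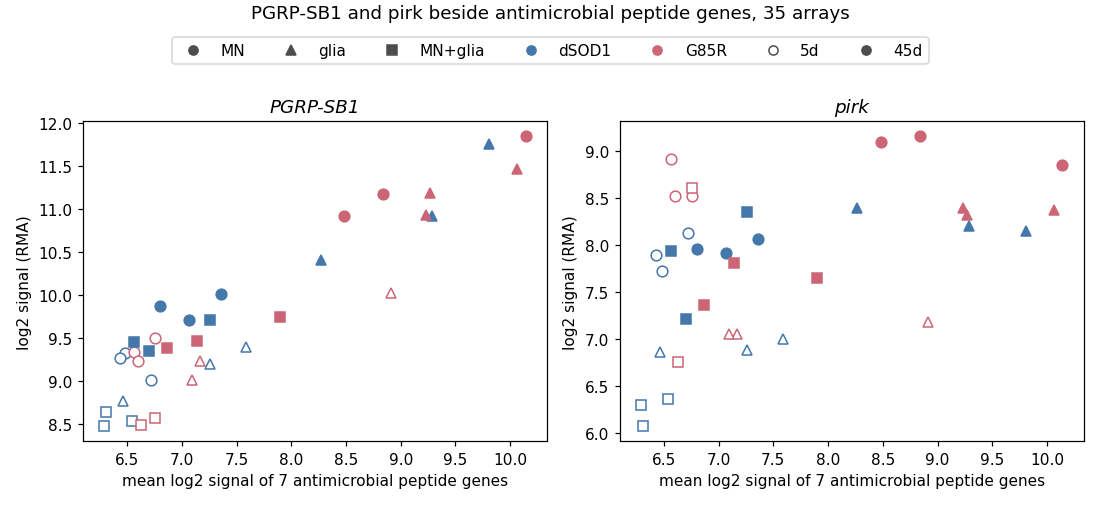
Log2 signal of PGRP-SB1 (left) and pirk (right) against the mean log2 signal of 7 antimicrobial peptide genes on each of 35 arrays; shapes are drivers, colours transgenes, and filled symbols 45d. Arrays with a peptide mean above 8 have PGRP-SB1 signals of at least 10.02, while for pirk the 5d MN G85R arrays lie at 8.52 to 8.91 with peptide means of 6.56 to 6.75.

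For 24 other Imd genes the counts called with G85R at 5d were 1, 0 and 0 for the MN, glia and MN+glia drivers (10.3%, 7.12% and 6.51% of all probe sets called in either direction). At 45d they were 2, 2 and 1 (12.8%, 12.3% and 8.74%), and 3, 4 and 7 had an unadjusted p under 0.05. In 45d MN flies these were 1 rise, the POU factor gene nub (0.65), and 1 fall, the ubiquitin protease gene scny (-0.18). At 45d scny and Fadd, the death domain adaptor downstream of imd, fell in glia flies (-0.36 and -0.26), and scny fell in MN+glia flies (-0.35). At 5d casp, an inhibitor of Imd signalling, rose by 0.19 in MN flies. The 0 calls by limma in 5d glia and MN+glia flies stood beside 1 and 2 genes at an unadjusted p under 0.05. With age 17, 11 and 10 of the 24 rose in MN, glia and MN+glia controls (27.4%, 23.6% and 22.1% of all probe sets called higher). With G85R the counts were 13, 8 and 5 (23.2%, 21.0% and 16.5%), the last of them near its background. The factor genes nub (0.76) and cad (0.41), with trbd (0.55), a ubiquitin chain protease, were among them in MN controls. CYLD, a deubiquitinase, fell in glia and MN+glia controls (-0.36 and -0.39).

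Of 3 other peptidoglycan recognition genes measured, PGRP-LA rose in 5d MN G85R flies by 0.24 (SE 0.075, adjusted p = 0.039 by limma) and PGRP-SB2 in 5d glia G85R flies by 0.38 (SE 0.088, adjusted p = 0.0057). In 45d MN flies, where PGRP-SB1 and PGRP-LF rose, their neighbours in the genome gave 0.05 for PGRP-SB2 and 0.17 for PGRP-LA, neither called. PGRP-LE, the intracellular receptor, lay between -0.10 and 0.00 in the 6 comparisons, none of them called. Of 18 Toll pathway genes, 2, 1 and 3 rose with G85R and 1, 2 and 0 fell at 5d in MN, glia and MN+glia flies. Over all probe sets 5.60%, 3.40% and 2.93% were called higher and 4.73%, 3.72% and 3.58% lower. At 45d 1, 0 and 1 rose and 1, 2 and 4 fell. The shares then were 6.94%, 6.30% and 3.74% higher and 5.90%, 5.96% and 5.00% lower. Among the Toll genes, grass, a serine protease upstream of Toll, rose in 45d MN flies (0.42) and GNBP3, a recognition protein for fungi, fell (-0.26). With age 13, 12 and 15 of the 18 rose in MN, glia and MN+glia controls and none fell. Of all probe sets 27.4%, 23.6% and 22.1% were called higher there and 20.0%, 18.8% and 18.3% lower.

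Marker lists of tissues that hold or use the pathway gave values beside the 45d MN result. Of 8 hemocyte genes 4 rose with G85R (6.94% of all probe sets called higher). Those included PPO1 (0.44), PPO2 (0.43) and eater (0.26). NimC1 fell by 0.88, and list means were 7.11 to 7.17 on dSOD1 and 7.20 to 7.29 on G85R arrays. NimC1 also fell in 45d glia and MN+glia flies, by 0.51 and 2.01, and PPO1 rose there by 0.72 and 0.78. Hemocyte list means in 45d glia flies were 7.31 to 7.38 on dSOD1 and 7.43 to 7.53 on G85R arrays. For 45d MN+glia flies they were 7.36 to 7.44 and 7.29 to 7.35. Of 6 gut genes 1, Mur29B, rose by 0.97 in 45d MN flies (6.94% called higher), and it rose by 0.78 in 45d glia flies. The mean over the gut genes was 12.81 to 12.88 on 45d MN dSOD1 and 13.03 to 13.06 on 45d MN G85R arrays, with no overlap. The median difference of the 6 genes was 0.04 there. This mean also lay higher with G85R, with no overlap, in 45d glia flies (12.49 to 12.57 against 12.66 to 12.77). The same held at 5d in MN flies (12.46 to 12.57 against 12.71 to 12.74) and glia flies (12.05 to 12.19 against 12.30 to 12.46). It lay lower with G85R in 45d MN+glia flies, at 12.64 to 12.76 against 12.55 to 12.59. In 45d MN+glia flies 2 gut genes fell (5.00% called lower). Limma called 0 of 5 fat body genes in 45d MN flies, and 0 had an unadjusted p under 0.05 (12.8% called in either direction). In 5d MN+glia flies, where pirk and PGRP-SC2 rose, NimC1 fell by 1.60 and Mur29B rose by 0.48, each a single gene of its list. The mean over the 8 hemocyte genes there was 7.49 to 7.60 on dSOD1 and 7.34 to 7.42 on G85R arrays. Over the 6 gut genes it was 12.17 to 12.23 and 12.46 to 12.53. The part of these tissues in the members' changes was not tested.

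By Pearson's r over the 12 group means, which share arrays, drivers and ages, the genes most like each member were as follows. PGRP-SB1 was closest to the serpin gene Spn88Eb (r = 0.98), the defensin gene Def (0.96) and mRpL11 (0.95). PGRP-SC2 was closest to CG31199 (0.98), CG17574 (0.97) and the cytochrome P450 gene Cyp4p1 (0.95). PGRP-LB was closest to CG16965 and the maltase genes Mal-A2 and Mal-A4, each at 0.97. For pirk they were CG34176 (0.96), CG10650 (0.95) and CG17574 (0.93), so that CG17574 was on the lists of both pirk and PGRP-SC2. PGRP-LF was closest to CG15098, CG8353 (each 0.97) and CG3987 (0.96), and PGRP-SD to CG42262 (0.98), CG4757 (0.97) and CG8539 (0.96). Rel was closest to the dynein heavy chain gene Dhc64C (0.97), RabX1 (0.96) and Vrp1 (0.95), and imd to stas, RhoGAP92B and Stam (each 0.93). Within the group, r over the same means was 0.94 for PGRP-SB1 with PGRP-SD, 0.90 for PGRP-SC2 with pirk and 0.30 for PGRP-SC2 with Rel.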

How the data were processed

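RNA from whole males was hybridised to Affymetrix Drosophila arrays. The deposited values are log2 signals, which the authors obtained with RMA in the Robin software, and groups were taken from the labels. No genome build is given in the sources used here. Of 18952 probe sets 183 controls were left out. Of the other 18769, 13647 carry 1 gene symbol, 402 several and 4720 none. RMA pulls arrays to a common distribution, so a shift of all genes would not be seen, and the number of arrays limits the precision.

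With R 4.3.3 and limma 3.58.1, 1 mean per group was fitted to 35 arrays (residual df 23, prior df 5.84), with 21 contrasts and Benjamini-Hochberg adjustment within each. The study leaves out 1 degraded array, described there as 5d M1B::G85R, whereas the control probe sets placed it in 5d MN+glia G85R. No pair of arrays was a duplicate (highest correlation 0.9988). Replicate numbers did not pair arrays: 4 of 18 same-numbered pairs correlated above 0.1 (range -0.30 to 0.21). Named genes are the members, up to 3 called genes each way per list and comparison, and the 3 genes most like a member; others, such as CecB, PGRP-LE, eater, were chosen after their values were seen, as were the single-array counts of peptide genes. Members and lists were chosen with earlier results of these data known. Lists were described by counts, with no set test. Alternatives comprised quantile and cyclic loess normalization, leaving out dim probe sets, weighting arrays, a prior trend, the replicate block, all 36 arrays, the arrays of a comparison alone, adjustment over a family, and leaving out each array.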

Additional observations from a re-analysis of the deposited data

Results flagged for a closer look

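Differences of the G85R effect between ages or drivers that passed the test are gathered here. With age the effect grew in MN flies for PGRP-SB1 (1.29) and PGRP-LF (0.64), and shrank in MN+glia flies for pirk (-1.66), where replicate 3 of 5d MN+glia G85R carries most of the early difference. At 45d it was larger in MN than in glia flies for PGRP-LB (0.55) and PGRP-LF (0.55). At 45d it was smaller in MN+glia than in MN flies for PGRP-SB1 (-1.42), PGRP-LB (-0.65), PGRP-LF (-0.54) and Rel (-0.61). The MN+glia flies carry both drivers, and how strongly each transgene was expressed there was not analysed here. PGRP-LF was called in 3 of these tests, each of them without any 1 array too. The calls of PGRP-SB1 were lost in 12 of 21 alternatives for the change with age and in 6 of 21 between drivers. That of Rel was lost in 8 of 21. For PGRP-LB the call of MN against glia flies was lost in 3 of 21, and that of MN+glia against MN flies was kept.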

How the results depend on the processing

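Of 51 calls on the 7 members, 38 were kept under every alternative run, 13 were lost under at least 1 and 0 reversed. The 6 rises in 45d MN flies were kept throughout. The replicate block gave 53 calls over 21 comparisons, with 4 against 3 in 5d MN+glia flies, and kept all 51. The count in 5d MN flies was 1, not 0, with dim probe sets left out, with a prior trend and with the arrays of the comparison alone. In 5d MN+glia flies it was 5 with all 36 arrays and 1 with the arrays of the comparison alone, against 3. For the change with age, MN gave 1 under quantile normalization, 4 with array weights and 1 with all 36 arrays (main 2). Glia gave 1 with array weights (main 0), and MN+glia gave 2 with array weights, 5 with all 36 arrays and 0 with the arrays of the comparison alone (main 1). Between drivers at 5d, MN minus glia gave 1 with array weights, and MN+glia minus MN gave 1 under quantile and cyclic loess normalization, the dim filter, array weights and all 36 arrays (main 0 for both). At 45d, MN minus glia gave 6 with array weights, 1 with all 36 arrays and 4 with the arrays of the comparison alone (main 2). Leaving out each array gave 0 to 1 calls in 5d glia and 0 to 4 in 5d MN+glia flies. It gave 1 to 3 (MN) and 0 to 3 (MN+glia) for the change with age. Between drivers it gave 0 to 1 for each pair at 5d, 1 to 3 for MN minus glia and 2 to 5 for MN+glia minus MN at 45d. For ageing it gave 6 to 7, 3 to 4 and 6 to 7 in glia, MN and MN+glia controls and 3 to 6 in MN+glia G85R flies. The cause of these shifts was not tested. The 2 arrays of 5d MN+glia G85R differ on pirk and Rel.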
